A study of Mus musculus with 55 samples.

Results

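The 7 genes described here encode the RIG-I-like receptors and other proteins that recognise or process double-stranded RNA in the cytosol: Ddx58, Ifih1, Dhx58, Mavs, Eif2ak2, Zbp1 and Adar. They were chosen by symbol from the 55421 genes of a first count table and the 35976 of a second, and all 7 were found in both, each in a single row. RIG-I and MDA5 bind viral or endogenous double-stranded RNA and pass the signal through MAVS on the mitochondrial membrane to the kinases and transcription factors that induce type I interferon. PKR answers the same ligand by phosphorylating eIF2alpha and so slowing translation, ZBP1 binds left-handed (Z-form) nucleic acid and can start cell death, and ADAR1 edits adenosines in duplexes so that self RNA is not taken for foreign. Most of these genes are themselves induced by interferon, so that they act both as sensors and as part of the response.

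RNA-seq was performed on hematopoietic stem and progenitor cells sorted from the bone marrow of C57BL/6 mice, WT or labelled Tet2-/-, to ask what loss of Tet2 changes at each level of the hierarchy. The first table held 46 libraries of 6 populations: long-term and short-term hematopoietic stem cells (LT-HSC, ST-HSC), common myeloid progenitors (CMP), granulocyte-monocyte progenitors (GMP), megakaryocyte-erythroid progenitors (MEP) and common lymphoid progenitors (CLP). There were 3 libraries each of WT LT-HSCs and ST-HSCs and 4 of every other group. The second table held 9 LT-HSC libraries, 3 each from WT, Sting-/- and Tet2;Sting DKO mice. Per the study's methods, Tet2-/- mice carried Tet2 f/f and Mx1-Cre, Sting-/- mice were a separate knockout line, and DKO mice combined all 3 alleles. Tet2 deletion was induced at 4 weeks of age with 5 doses of poly(I:C). As background, the Mx1 promoter is switched on by interferon and is not confined to blood cells, and poly(I:C) is a synthetic double-stranded RNA that the sensors described here themselves recognise. The mice of the first set were then kept for 16 weeks so that the acute reaction could pass. Whether WT mice received poly(I:C), and the age of the second cohort, were not given in the sources used here.

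Depth was 50458473 to 102148079 counts per library in the first set and 26776517 to 78682096 in the second. Levels are CPM, counts scaled to library size, after TMM scaling of each set, which corrects for library composition. Counts of Tet2 itself did not separate the genotypes, at 2.33 to 41.2 CPM in the 22 WT libraries and 6.05 to 72.5 CPM in the 24 libraries labelled Tet2-/-, so the genotype is given here as labelled. Gene counts can include reads from exons that a deletion leaves in place, so they do not settle the genotype. Common lymphoid markers summed to 451 to 2262 CPM in CLPs labelled Tet2-/- and 651 to 1311 CPM in WT CLPs, against at most 207 CPM in any other library of the first set. Markers of GMPs, which CLPs should lack, ranged from 5.06 to 3103 CPM among WT CLPs and from 2.69 to 12150 CPM among CLPs labelled Tet2-/-, while GMP libraries held at least 31470 CPM. CLP libraries also had fewer genes with counts, 13754 to 16903 against at least 17586 in every other library of the first set. In the second set all 3 WT libraries held Xist (91.4 to 244 CPM) and the Sting-/- and DKO libraries held at least 154 CPM of Y-linked Eif2s3y, so sex and genotype cannot be told apart in the contrasts with WT. DKO and Sting-/- libraries did not differ in this respect, with Xist at 15.4 CPM at most. The study's figure legends describe samples as individual mice, while the labels do not say whether libraries of different populations with the same number came from 1 mouse. In the second set Sting's own gene, Tmem173, held 120.9, 0 and 62.4 CPM in the libraries labelled Sting-/- and 0, 0.196 and 26.1 CPM in those labelled DKO, against 46.1, 34.6 and 0 CPM in WT. The highest Tmem173 levels were thus in 2 libraries labelled Sting-/-. Tet2 held 25.2, 0 and 0 CPM in WT and 42.6, 20.1 and 1.29 CPM in the libraries labelled DKO, and the names Sting-/- and DKO are used for that set as labels only. Here too reads from undeleted exons cannot be told apart in gene counts, and the study's own checks of the Tet2 deletion by genotyping and of STING loss in bone marrow cells were not analysed here.

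Coordinates of the genes are those of GENCODE M21 on mm10, and all 7 are protein-coding. Ddx58 (RIG-I) lies at chr4:40203773-40239828 on the minus strand, Ifih1 (MDA5) at chr2:62595798-62646255 (minus), Dhx58 (LGP2) at chr11:100694884-100704271 (minus) and Mavs at chr2:131234063-131248025 (plus). Eif2ak2 (PKR) lies at chr17:78852564-78882573 (minus), Zbp1 at chr2:173206612-173218923 (minus) and Adar (ADAR1) at chr3:89715022-89753446 (plus). RefSeq promoters on GRCm38.p6 were matched for 5 of the genes, 7 promoters in all because Adar has 3; Dhx58 and Zbp1 had none. The 250 bases before each start were searched on both strands for GAAANNGAA, the core of the interferon-stimulated response element, and for the gamma-activated site TTCNNNGAA, which reads the same on both strands and can share its GAA with the first. Of 32851 promoters, 7.13% held the first and 7.02% the second. The stretches of 60 bases that held a match are shown because they are the only matches among the 7 promoters, in capitals, 5′ to 3′ on the gene's strand.
Ifih1, chr2:62646333-62646392, response element on the opposite strand 112 to 104 bases before the start: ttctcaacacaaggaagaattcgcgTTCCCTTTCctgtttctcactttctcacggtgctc
Adar, promoter 3, chr3:89730468-89730527, response element 249 to 241 bases before the start: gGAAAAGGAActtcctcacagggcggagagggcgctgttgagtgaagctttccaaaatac
Eif2ak2, chr17:78882716-78882775, gamma-activated site 178 to 170 bases before the start: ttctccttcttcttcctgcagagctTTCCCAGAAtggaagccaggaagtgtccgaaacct
These are matches of letters only, and the absence of a match elsewhere says only that the letters were not in the window.

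In WT cells the sensors did not share a single pattern across the hierarchy. By mean, Ddx58 and Zbp1 stood highest in CLPs and HSCs and low in myeloid and erythroid progenitors, although Ddx58 in LT-HSCs overlapped CMPs. Eif2ak2 was lowest in CLPs, and Mavs stood highest in GMPs. An F test across the 6 WT populations (edgeR's quasi-likelihood test, Benjamini-Hochberg adjusted p under 0.05) was passed by 3 of the 7 genes, Ddx58 (adjusted p = 6.7e-07), Zbp1 (0.00025) and Eif2ak2 (0.000392), where 44.6% of all 20006 genes tested passed. Ifih1 (0.147), Adar (0.156), Mavs (0.202) and Dhx58 (0.955) did not; DESeq2 put Adar at 0.0368. Replicate spread was wide for these genes, and in bulk libraries fewer cells of a kind and less RNA per cell cannot be told apart.

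**Figure D1:**
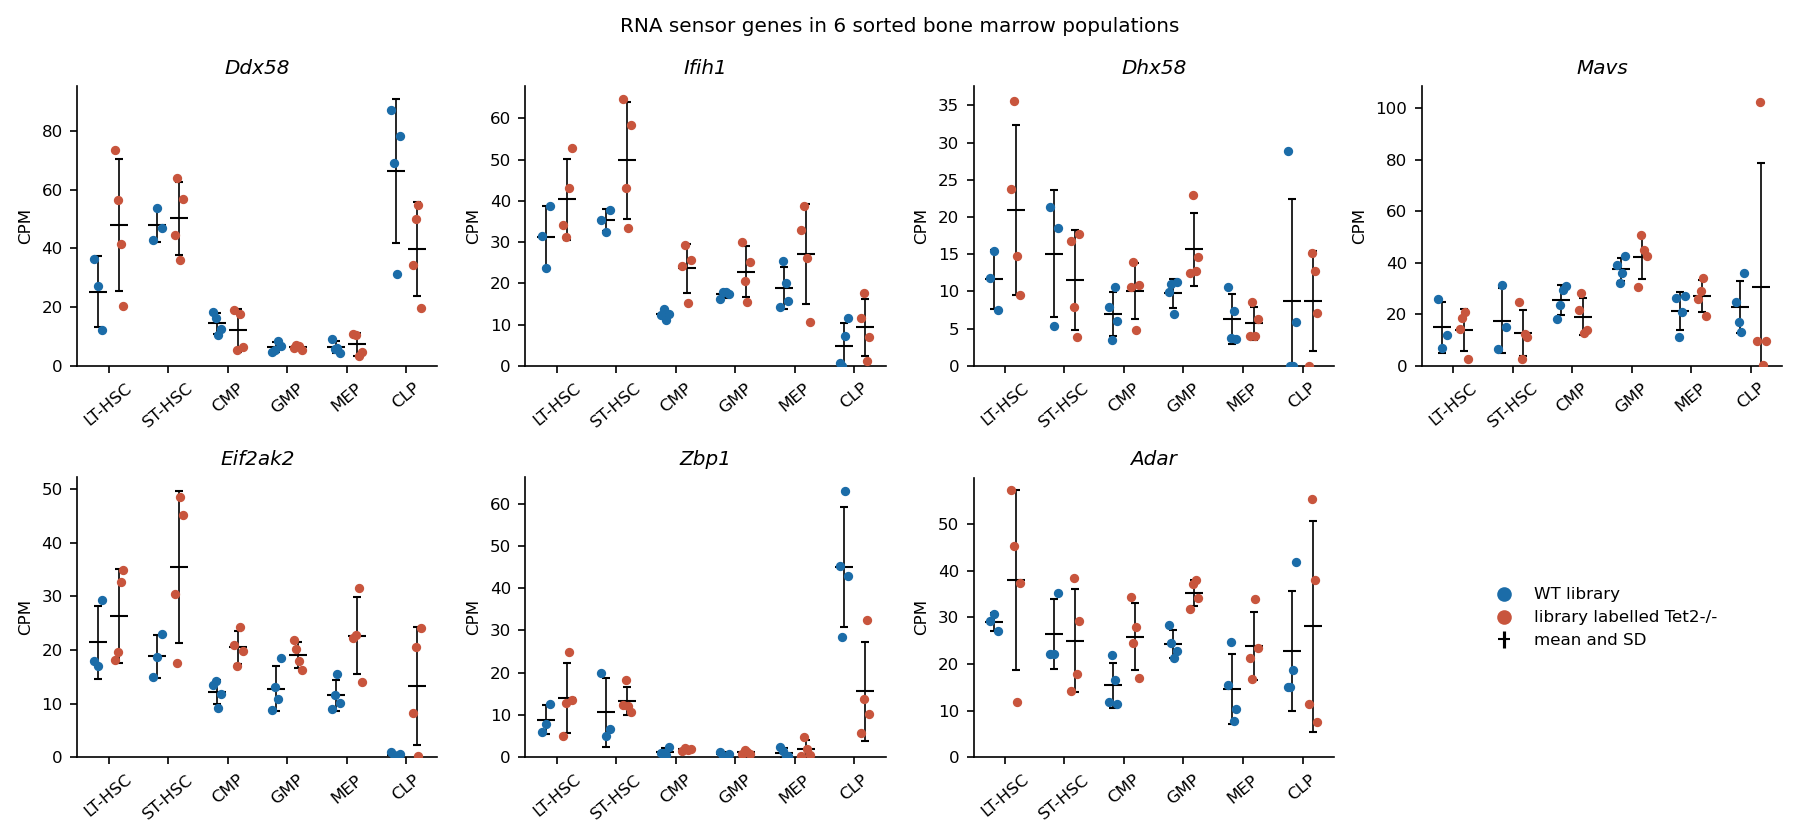
CPM of each gene (vertical axis, linear, from 0) in 6 populations (horizontal axis); points are libraries, blue WT and red labelled Tet2-/-, and the black marks are mean and SD, with SD bars cut at 0. Eif2ak2 reached at most 0.945 CPM in the 4 WT CLP libraries and between 8.32 and 24.1 CPM in 3 of the 4 CLP libraries labelled Tet2-/-.

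Ddx58, the receptor for short 5′-triphosphate duplexes, stood higher in ST-HSCs than in myeloid and erythroid progenitors. WT ST-HSC libraries held 42.7, 53.9 and 47.1 CPM (mean 47.9 ± 5.62 SD, n = 3), and WT LT-HSC libraries 36.4, 27.2 and 12.3 CPM. WT CMPs held 18.5, 16.4, 10.4 and 12.6 CPM, all below every ST-HSC library. They overlapped the LT-HSCs (LT-HSC to CMP in edgeR: log2 fold change -0.79 ± 0.38 SE, adjusted p = 0.243). GMPs (4.55, 5.51, 8.55 and 6.81 CPM) and MEPs (9.18, 5.63, 6.21 and 4.33 CPM) overlapped each other and lay below every CMP library. CLPs (87.1, 69.0, 31.4 and 78.4 CPM) overlapped the ST-HSCs and stood above the LT-HSCs by mean (LT-HSC to CLP in edgeR: 1.39 ± 0.40, adjusted p = 0.0132). Among 5 steps of the hierarchy, edgeR called Ddx58 lower from ST-HSC to CMP (log2 fold change -1.73 ± 0.38 SE, adjusted p = 0.00877) and from CMP to MEP (-1.23 ± 0.36, 0.0365), a call being an adjusted p under 0.05 and at least a 2-fold change. The first call was lost without WT replicate 3 (adjusted p = 0.134) or 5 (0.0869), and the second without the low-count filter (0.0568) or without WT replicate 2 (0.0866), 3 (0.291) or 5 (0.185). From CMP to GMP the change was -1.16 ± 0.36 (0.0724), called by DESeq2 (0.0093) and without WT replicate 4 (0.0416).

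Zbp1 ranged over a wider span. WT CLPs held 45.3, 28.4, 63.0 and 43.0 CPM (44.9 ± 14.2, n = 4), above every other WT library. These 4 libraries also held the highest marker sums of B cells (567 to 1267 CPM, against at most 80.2 CPM in other WT libraries) and of plasmacytoid dendritic cells (425 to 730.4 CPM, against at most 322 CPM), and their part in the Zbp1 level was not tested. LT-HSCs held 6.08, 7.92 and 12.7 CPM and ST-HSCs 20.0, 5.14 and 6.74 CPM, and these overlapped. CMPs lay between 0.415 and 2.53 CPM, GMPs between 0.126 and 1.25 CPM and MEPs between 0 and 2.38 CPM, all below every HSC library. None of the 5 steps was called; from ST-HSC to CMP the log2 fold change was -3.08 ± 1.07 (adjusted p = 0.0973; DESeq2, 0.0127). Without WT replicate 4 the step was called (adjusted p = 0.0438), and without WT replicate 2, 3 or 5 it was not, at -2.15 (0.463), -3.30 (0.295) and -3.91 (0.221). Zbp1 was called lower in the direct pairs from LT-HSC to GMP (-3.66 ± 1.09, adjusted p = 0.0219), from ST-HSC to GMP (-3.95 ± 1.10, 0.0153) and from ST-HSC to MEP (-3.38 ± 1.08, 0.0348). It was called higher from CMP, GMP and MEP to CLP, with log2 fold changes of 5.13 ± 1.14 (adjusted p = 0.00261), 5.99 ± 1.18 (0.00109) and 5.43 ± 1.16 (0.00112). All 15 pairs of WT populations were compared, each adjusted over all genes.

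Eif2ak2 and Ifih1 ran the other way in the lymphoid progenitors. Eif2ak2 held 0.945, 0.35, 0 and 0.598 CPM in WT CLPs, 50, 14, 0 and 28 counts. These 4 libraries had 13791 to 15298 genes with counts, against 17753 to 18126 in WT ST-HSCs, and the part of this in the low levels was not tested. In the 18 other WT libraries it lay between 8.71 and 29.3 CPM, with means of 21.4 ± 6.86 in LT-HSCs, 18.8 ± 4.01 in ST-HSCs, 12.8 ± 4.16 in GMPs, 12.1 ± 2.24 in CMPs and 11.6 ± 2.86 in MEPs. These 5 populations overlapped as neighbours in that order, and only the last gap, from MEP to CLP, was called (log2 fold change -4.49 ± 0.72, adjusted p = 6.82e-05). From ST-HSC to CLP the change was -5.24 ± 0.76 (adjusted p = 3.85e-05). Ifih1, which binds long duplexes, was also called on that step (-2.86 ± 0.94, 0.0296): WT CLPs held 0.756, 0, 7.33 and 11.5 CPM, and ST-HSCs 35.5, 32.5 and 37.8 CPM. The Ifih1 call was lost without WT replicate 2 (adjusted p = 0.168), 4 (0.0615) or 5 (0.0718), while Eif2ak2 was called in each of them. LT-HSCs (31.4, 23.6 and 38.7 CPM) stood with the ST-HSCs, and CMPs (12.4 ± 1.17 CPM), GMPs (17.3 ± 0.762) and MEPs (18.8 ± 5.07) in between.

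Dhx58 (a receptor without the signalling domain), Mavs (the adaptor) and Adar (the editing enzyme) did not pass the F test, with Adar passing by DESeq2. Dhx58 ran from 15.04 ± 8.53 CPM in ST-HSCs to 6.32 ± 3.35 in MEPs, and all neighbours in its order overlapped. In WT CLPs its libraries held 28.9, 0, 0 and 5.87 CPM. Mavs ran from 37.5 ± 4.53 CPM in GMPs to 14.9 ± 9.88 in LT-HSCs; every GMP library (32.1 to 42.7 CPM) lay above every CMP library (18.1 to 30.9 CPM), with an adjusted p of 0.639 for that step. Adar ran from 29.0 ± 1.89 CPM in LT-HSCs to 14.6 ± 7.48 in MEPs, and all its neighbours overlapped. Over all 7 genes, edgeR called 0 on the step from LT-HSC to ST-HSC (0.175% of genes called), 1 from ST-HSC to CMP (5.0%), 0 from CMP to GMP (3.15%), 1 from CMP to MEP (6.45%) and 2 from ST-HSC to CLP (24.5%). At an unadjusted p under 0.05 the genes numbered 1 from LT-HSC to ST-HSC (8.85% of all genes), 2 from ST-HSC to CMP (20.7%), 1 from CMP to GMP (16.9%), 1 from CMP to MEP (21.8%) and 2 from ST-HSC to CLP (41.3%). Ddx58 was the gene on the first step and on both steps from CMP.

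**Figure D2:**
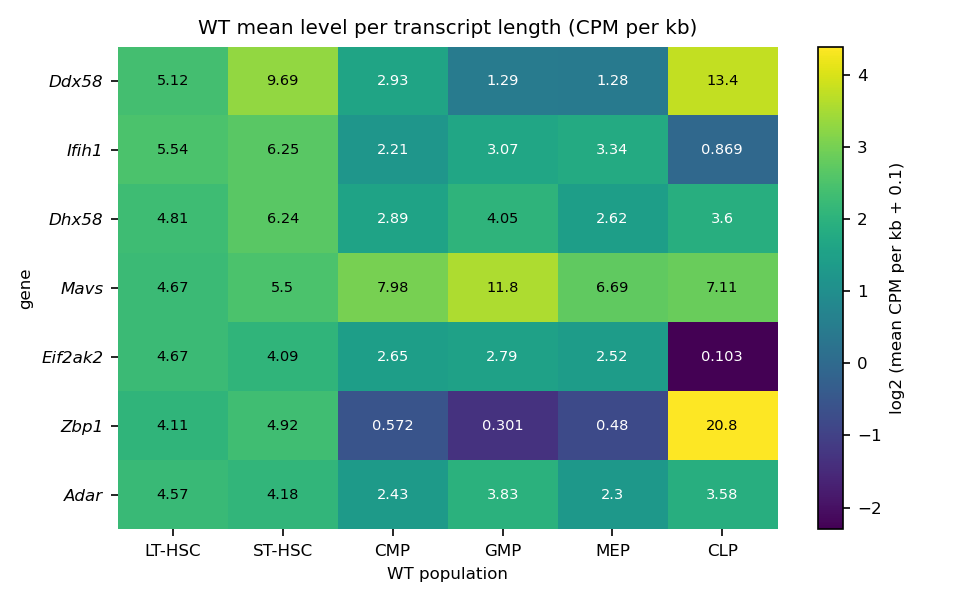
Mean WT level of each gene (rows) in 6 populations (columns) per kilobase of the transcript length given in the second table; the number in a cell is CPM per kb and the colour its log2 after adding 0.1. Per kilobase, Zbp1 in CLPs (20.8) was the highest cell and Eif2ak2 in CLPs (0.103) the lowest.

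Per kilobase, where genes can be compared with each other, WT LT-HSCs held from 4.11 CPM per kb for Zbp1 to 5.54 for Ifih1. GMPs spread from 0.301 for Zbp1 to 11.8 for Mavs, and CLPs from 0.103 for Eif2ak2 to 20.8 for Zbp1. The adaptor thus stood above each of its 2 receptors per kilobase in CMPs, GMPs and MEPs (for example 11.8 for Mavs against 1.29 for Ddx58 and 3.07 for Ifih1 in GMPs), and below Ddx58 in ST-HSCs and CLPs. With the GENCODE exon lengths, an alternative chosen after the data were seen, both of these orders were the same. In LT-HSCs the order of Mavs and Ddx58 depended on the length used, 4.67 and 5.12 CPM per kb with the second table's lengths and 4.45 and 3.59 with GENCODE's, and LT-HSC levels then ran from 2.52 for Zbp1 to 4.45 for Mavs. These are means without a test.

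The comparison of genotypes within each population asked whether the sensors changed at any one stage. edgeR called 0 of the 7 genes in LT-HSCs (0.0245% of genes called), ST-HSCs (0.0185%), CMPs (4.57%), GMPs (4.37%), MEPs (4.36%) and CLPs (0.00766%). At an unadjusted p under 0.05, 0 genes passed in LT-HSCs (5.16% of genes) and 1 did in ST-HSCs (6.13%). CMPs had 3 (19.1%) and GMPs 3 (17.3%), while MEPs had 1 (16.4%) and CLPs 2 (3.65%). Those were Eif2ak2 in the 5 populations other than LT-HSC, Adar in CMPs and GMPs, Ifih1 in CMPs and Dhx58 in GMPs, all higher in libraries labelled Tet2-/-, and Zbp1 in CLPs, lower. DESeq2 called 0 of 7 in LT-HSCs (0.946% of genes), ST-HSCs (1.34%), CMPs (4.76%), GMPs (3.94%) and MEPs (3.98%), and in CLPs (2.06%) only Eif2ak2. The median log2 fold change of the 7 genes was 0.41, 0.10, 0.59, 0.51, 0.51 and 0.33 in the 6 populations in that order, beside 0.03 to 0.07 over all genes tested.

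**Figure D3:**
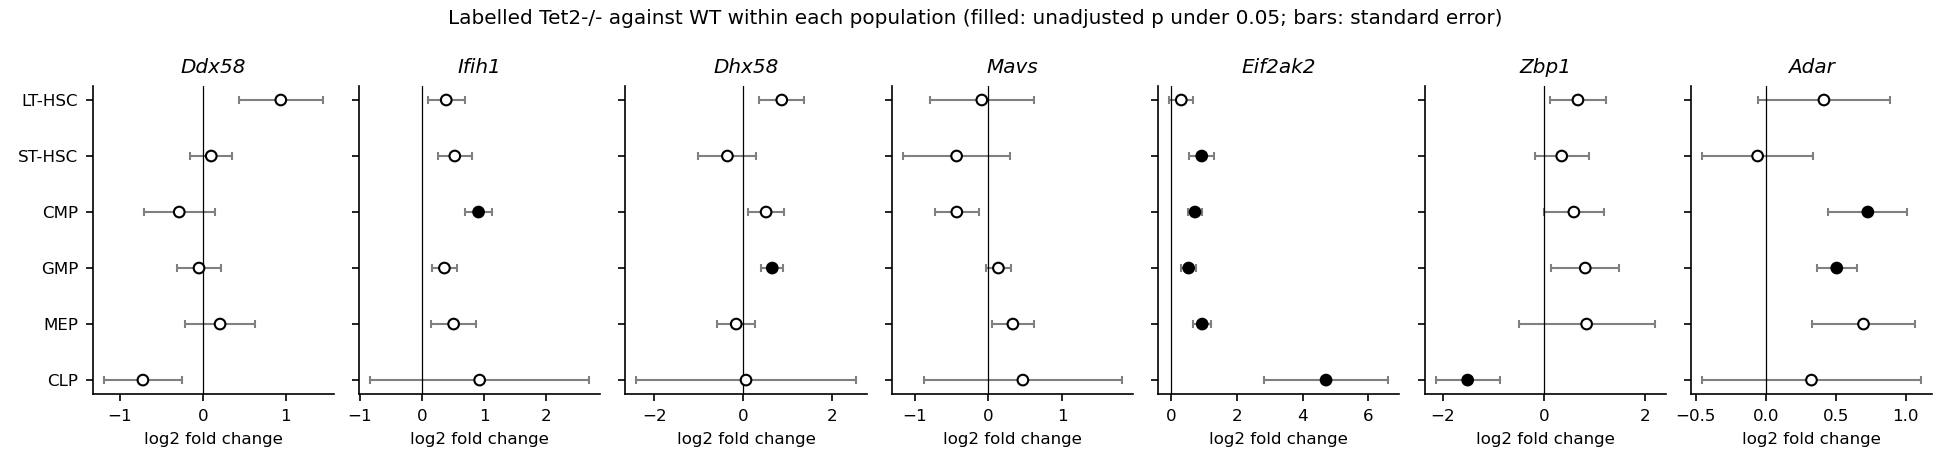
Log2 fold change of libraries labelled Tet2-/- against WT (horizontal axis, its range set for each gene) in each population (rows); bars are standard errors and filled points have an unadjusted p under 0.05 in edgeR's test. Eif2ak2 and Ifih1 have positive values in every population, and Eif2ak2 has filled points in 5 of them.

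Eif2ak2, which encodes PKR, was higher in libraries labelled Tet2-/- when the 6 populations were averaged in 1 fit of all 46 libraries: log2 fold change 1.37 ± 0.28 SE, or 2.58-fold, adjusted p = 0.000998. It was the only 1 of the 7 genes called higher on average, where 1.73% of 22360 genes were, and it was called under each of 13 other settings of the fit (log2 fold changes 1.34 to 1.49, adjusted p from 2.83e-07 to 0.0157). Without the CLP libraries, an alternative chosen after the data were seen, the average was 0.72 ± 0.14 with an adjusted p of 0.000341, past the test but under 2-fold.

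By population, CMPs labelled Tet2-/- held 20.9, 16.9, 24.2 and 19.8 CPM of Eif2ak2 and WT CMPs 13.4, 14.2, 9.12 and 11.8. The groups did not overlap (log2 fold change 0.74 ± 0.20, adjusted p = 0.0637). DESeq2 gave 0.75 and 0.00179, past the test but under 2-fold. Sums of 5 MEP markers were 2756 to 5595 CPM in CMPs labelled Tet2-/- and 559.8 to 1572 CPM in WT CMPs. Sums of 6 HSC markers were 62.95 to 67.9 CPM against 41.0 to 57.01 CPM, also without overlap. The part of both in the CMP values of Eif2ak2 and the other genes was not tested. MEPs labelled Tet2-/- held 22.2, 22.7, 31.5 and 14.0 CPM and WT MEPs 9.02, 11.6, 15.6 and 10.1 (0.96 ± 0.27, adjusted p = 0.0831; DESeq2, 0.95 and 0.0122, likewise under 2-fold), with 3 of 4 above the highest WT library. Without replicate 5 labelled Tet2-/-, the lowest of them, MEPs were called (log2 fold change 1.12, adjusted p = 0.04). Sums of 4 erythroid markers were 80.47 to 106.5 CPM in MEPs labelled Tet2-/- and 157.0 to 429.8 CPM in WT MEPs. Sums of 6 HSC markers were 91.43 to 117.7 CPM against 77.99 to 86.73 CPM, also without overlap. The part of both in the MEP values of Eif2ak2 and the other genes was not tested. GMPs labelled Tet2-/- held 21.8, 20.2, 17.9 and 16.2 CPM and WT GMPs 8.71, 13.1, 10.9 and 18.4 (0.54 ± 0.23, adjusted p = 0.25), overlapping through WT replicate 5. ST-HSCs with that label had 30.5, 17.6, 48.5 and 45.1 CPM and WT 14.9, 18.6 and 22.9 (0.94 ± 0.38, adjusted p = 0.766), and 3 of 4 lay above WT. LT-HSCs overlapped, at 18.04, 19.7, 32.7 and 34.9 CPM against 17.9, 17.0 and 29.3 (0.32 ± 0.37, adjusted p = 0.998).

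In CLPs labelled Tet2-/-, Eif2ak2 held 8.32, 20.5, 0.198 and 24.1 CPM, against at most 0.945 CPM in WT. Replicate 4, with 10 counts, lay among the WT libraries, and the other 3 lay in the range of the myeloid progenitors or just below it. The log2 fold change within CLPs was 4.71 ± 1.89 with an adjusted p of 1, and 4.71 with an adjusted p of 8.51e-05 when the spread was taken from all 46 libraries; DESeq2 gave 4.81 and 0.0311. GMP markers summed to 2.69, 12150, 2258 and 4118 CPM in replicates 2, 3, 4 and 5 labelled Tet2-/- and to 3103, 1256, 5.06 and 29.1 CPM in the 4 WT libraries. The libraries with the most Eif2ak2, replicates 3 and 5, had the highest sums of the 8 and replicate 2, with 8.32 CPM, the lowest. A sum of 6 macrophage markers was 174, 41.4, 23.4 and 93.6 CPM in replicates 2 to 5 labelled Tet2-/- and 26.5, 0.3, 24.6 and 38.1 CPM in WT, so that the 3 libraries with Eif2ak2 above WT also lay above WT in this sum and replicate 4 did not; C1qa and C1qb were at 0 in all 8. A sum of 4 T and NK cell markers, of which Cd3e was at 0 in all 8, was 798, 345, 169 and 339 CPM against 131 to 310.4 CPM in WT, again with replicate 4 alone inside the WT range. In GMPs this sum was 518.2 to 775.7 CPM labelled Tet2-/- and 597.4 to 759.4 CPM in WT. It therefore does not by itself single out T and NK cells. Mitochondrial counts made up 12.5%, 7.82%, 3.11% and 4.23% of replicates 2 to 5 labelled Tet2-/-, against 2.41% to 4.58% in WT CLPs. Genes with counts numbered 13754, 16730, 15156 and 16903 in these replicates and 13791 to 15298 in WT CLPs, so that replicates 3 and 5, with the most Eif2ak2, also had the most genes of the 8. The part of these markers, of mitochondrial counts and of gene detection in the result was not tested. The genotype effect on Eif2ak2 differed between populations by an F test of the difference itself (adjusted p = 0.0314), which 2.65% of genes passed. No other of the 7 genes passed. This test took 1 spread per gene from all 46 libraries, while the standard error for Eif2ak2 was 1.89 within CLPs and 0.20 to 0.38 within other populations. The difference between populations was not held without the CLP libraries (adjusted p = 0.908) or with the replicate number as a block (0.0671). It was also not held with limma voom and genotype with replicate number as a random block together (0.138). Leaving out any single replicate number other than 4 labelled Tet2-/- lost it too (0.0689 to 0.243).

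Ifih1 had a positive log2 fold change in each population, below the call. CMPs labelled Tet2-/- held 24.2, 29.4, 15.3 and 25.6 CPM and WT CMPs 12.3, 13.8, 11.0 and 12.6, without overlap. The log2 fold change was 0.91 ± 0.22 with an adjusted p of 0.0397, past the test but under 2-fold. It was called without replicate 4 labelled Tet2-/- (1.07, adjusted p = 0.0122), and without any other single library the adjusted p was 0.0782 to 0.124. Over all alternatives it ran from 0.00107 to 0.897. The MEP and HSC marker sums given above also did not overlap between these CMP groups, and their part in the Ifih1 values was not tested. In the other populations the change was 0.39 ± 0.30 (LT-HSC), 0.53 ± 0.28 (ST-HSC), 0.36 ± 0.20 (GMP), 0.51 ± 0.36 (MEP) and 0.93 ± 1.76 (CLP), with adjusted p from 0.42 to 1. Averaged over the 6 populations it was 0.61 ± 0.30 (adjusted p = 0.281). With limma voom and genotype with replicate number as a random block together the average was 0.91 (adjusted p = 0.0365), past the test but under 2-fold. Without the CLP libraries the average was 0.56 ± 0.13 with an adjusted p of 0.00337, past the test but under 2-fold.

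Adar was higher in GMPs labelled Tet2-/- (31.9, 37.0, 38.0 and 34.2 CPM) than in WT GMPs (28.4, 24.6, 21.3 and 22.9 CPM) in every library, although it did not pass the adjusted test (log2 fold change 0.51 ± 0.14, adjusted p = 0.0629; DESeq2, 0.00359, with a fold under 2). In CMPs it was 34.3, 24.4, 27.9 and 16.9 CPM against 11.8, 21.9, 16.5 and 11.4 (0.73 ± 0.28, adjusted p = 0.188), with 1 of the 4 libraries within the WT range. MEPs gave 0.70 ± 0.37 (adjusted p = 0.407), and in LT-HSCs the 4 libraries labelled Tet2-/- scattered from 11.8 to 57.4 CPM around a WT range of 27.02 to 30.8 (0.41 ± 0.47, adjusted p = 0.998). In ST-HSCs the value was -0.06 ± 0.40 (25.0 ± 11.1 CPM against 26.5 ± 7.49 in WT, adjusted p = 0.999) and in CLPs 0.33 ± 0.78 (adjusted p = 1). The average over populations was 0.43 ± 0.19 (adjusted p = 0.215). Dhx58 showed a like separation only in GMPs, at 12.5, 22.9, 12.7 and 14.6 CPM against 9.86, 11.0, 6.98 and 11.3 (0.65 ± 0.25, adjusted p = 0.181), and its values ran from -0.36 ± 0.65 to 0.87 ± 0.51 in the other 5 populations. Kit and Ly6a summed to 299.5 to 330.9 CPM in GMPs labelled Tet2-/- and 200.1 to 258.8 CPM in WT GMPs, without overlap. The sums of the other marker lists overlapped between the GMP groups. In LT-HSCs the Kit and Ly6a sums were 344.7 to 482.3 against 240.3 to 342.7 CPM in WT. The part of these sums in the values of the 7 genes was not tested.

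Ddx58, Mavs and Zbp1 were not called in any population or on average by edgeR. Ddx58 averaged 0.03 ± 0.18 and Mavs -0.0046 ± 0.32 over populations (adjusted p = 1 for both), and Zbp1 0.29 ± 0.35 (adjusted p = 0.963). Mavs had values of -0.09 ± 0.71, -0.43 ± 0.73, -0.43 ± 0.29, 0.14 ± 0.17, 0.33 ± 0.29 and 0.47 ± 1.34 in the 6 populations from LT-HSC to ST-HSC, CMP, GMP, MEP and CLP, with adjusted p from 0.504 to 1. Zbp1 had values of 0.67 ± 0.55, 0.35 ± 0.53, 0.59 ± 0.60, 0.82 ± 0.67 and 0.84 ± 1.35 in LT-HSCs, ST-HSCs, CMPs, GMPs and MEPs, all uncalled (adjusted p from 0.614 to 0.999), and averaged 0.68 ± 0.40 without the CLP libraries (0.356). In LT-HSCs Ddx58 held 73.5, 56.4, 41.6 and 20.3 CPM in libraries labelled Tet2-/- against 36.4, 27.2 and 12.3 in WT, 3 of 4 above the highest WT library (0.94 ± 0.51, adjusted p = 0.998). In CLPs it held 34.5, 50.1, 54.9 and 19.8 CPM against 31.4 to 87.1 in WT (-0.72 ± 0.47, adjusted p = 1). Zbp1 in CLPs labelled Tet2-/- held 5.78, 13.9, 32.4 and 10.2 CPM, 3 of 4 below the lowest WT library (-1.51 ± 0.64, adjusted p = 1). Replicate 4, the library with Eif2ak2 near 0, was the 1 that stayed in the WT range. B cell markers summed to 99.7, 288, 669 and 549 CPM in these 4 libraries, in the order of replicates 2 to 5, and to 567, 1267, 1261 and 647 CPM in WT. Plasmacytoid dendritic cell markers summed to 134.6, 549, 560.0 and 274 CPM in the same order and to 425 to 730.4 CPM in WT, with the 4 libraries labelled Tet2-/- in the same order as by Zbp1 and replicates 2 and 5 below every WT library. The part of both in the Zbp1 values was not tested.

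Genes around the sensors were described by lists. Of 19 co-factors and ubiquitin regulators of RIG-I-like receptors, 1 was called in CMPs, where 4.57% of all genes were, Rnf125, a ligase that marks RIG-I for decay (57.7 ± 9.44 CPM in WT, 26.9 ± 4.09 labelled Tet2-/-, log2 fold change -1.12 ± 0.17, adjusted p = 0.00409). Riok3 was the only 1 called in GMPs (-1.13 ± 0.25, 0.0204; 4.37% of all genes), and Zcchc3, an RNA-binding co-receptor, on average over populations (-1.02 ± 0.23, 0.00391), where 1.76% of all genes were called lower. In LT-HSCs 15 of the 19 stood lower and 0 were called, with a median of -0.21. Of all genes tested there 54.3% stood higher, with a median of 0.06. The 2 of the list with the smallest p were higher without passing the test, Ddx60 (1.08 ± 0.23, adjusted p = 0.445) and Trim25, the ligase that activates RIG-I (1.11 ± 0.32, 0.687). Of 17 or 18 tested genes of MAVS signalling, 1 was called in CMPs (4.57% of all genes), 1 in GMPs (4.37%) and 2 in MEPs (4.36%). Tradd was called lower in CMPs (15.3 ± 3.16 against 5.55 ± 1.40 CPM, -1.47 ± 0.26, 0.0095) and MEPs (-2.23 ± 0.29, 0.00164), and Azi2, an adaptor of TBK1, in GMPs (33.9 ± 7.64 against 10.2 ± 2.23 CPM, -1.77 ± 0.21, 0.000303) and MEPs (-1.81 ± 0.32, 0.00924). Genes called in these populations fell far more often than they rose over the whole table, 629 of 734 in CMPs, 672 of 723 in GMPs and 629 of 651 in MEPs.

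Of the other eIF2alpha kinases and genes around PKR and eIF2alpha, 10 were tested, and 2 were called in CMPs (4.57% of all genes), 2 in GMPs (4.37%), 2 in MEPs (4.36%), 0 in the other populations and 1 on average (1.76% called lower). Ddit3, the stress-induced factor CHOP, was called lower in CMPs (102.2 ± 8.48 against 36.5 ± 6.05 CPM, log2 fold change -1.50 ± 0.15, adjusted p = 0.000306), GMPs (-1.33 ± 0.17, 0.000403), MEPs (-1.31 ± 0.21, 0.0053) and on average (-1.36 ± 0.17, 5.87e-07), the opposite sign to Eif2ak2. Dnajc3, an inhibitor of PKR and PERK, was called lower in the same 3 populations, most in GMPs (220.0 ± 24.6 against 61.3 ± 15.95 CPM, -1.87 ± 0.18, 5.6e-05). Atf4 was not called in any population. Of the 10 genes of the ZBP1 cell death arm edgeR called 0 in each population and on average, where 0.00766% to 4.57% and 1.73% (higher) or 1.76% (lower) of all genes were called; at an unadjusted p under 0.05 there were 0 to 3 within populations (3.65% to 19.1% of all genes) and 2 on average (17.0%). Fadd in CMPs, for example, stood at -0.59 ± 0.21 (adjusted p = 0.143). Of 14 genes of double-stranded RNA editing and decay edgeR also called 0, with 1 to 5 at an unadjusted p under 0.05 within populations and 5 on average, beside the same shares of all genes. Dhx9, a helicase that unwinds duplexes, averaged 0.79 ± 0.13 with an adjusted p of 3.73e-05, past the test but under 2-fold, and in MEPs 0.67 ± 0.17 (36.9 ± 6.23 CPM in WT, 59.3 ± 8.41 labelled Tet2-/-, adjusted p = 0.0512). Xrn1, a 5′ to 3′ exonuclease, averaged 0.52 ± 0.13 (0.00645). Supv3l1, a mitochondrial RNA helicase, was lower past the test but under 2-fold in CMPs (-0.90 ± 0.19, 0.0209) and MEPs (-0.91 ± 0.23, 0.0495). Of 10 genes of endosomal RNA sensing, 6 to 8 were tested in each population and 10 on average, with 0 calls by edgeR; at an unadjusted p under 0.05 they numbered 0 to 2 within populations (3.65% to 19.1% of all genes) and 2 on average (17.0%). In CMPs the smallest p belonged to Unc93b1, which carries Toll-like receptors to endosomes (-1.22 ± 0.36, adjusted p = 0.0858), and Irf5 (-1.22 ± 0.38, 0.10), and on average to Irak4 (-0.37 ± 0.14, 0.0964). Of 22 interferon response genes, 2 were called higher on average, where 1.73% of all genes were, Oas3 (1.70 ± 0.39, 0.0044) and Ifi44 (1.52 ± 0.37, 0.00677), with a list median of 0.38 beside 0.06 over all genes. Within populations edgeR called 2 of 21 tested in CMPs (4.57% of all genes), 1 of 21 in GMPs (4.37%), 1 of 20 in MEPs (4.36%) and 0 in the others. In LT-HSCs the smallest p belonged to Ifit3, at 0 CPM in each WT library and 4.71 ± 2.03 CPM in those labelled Tet2-/- (adjusted p = 0.194). Ifi44 was called higher in CMPs (1.30 ± 0.31, 0.0378) and GMPs (1.84 ± 0.45, 0.033), and Ifnar2, a chain of the interferon receptor, lower in CMPs (-1.57 ± 0.19, 0.00111) and MEPs (-1.01 ± 0.17, 0.0066).

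Across WT populations, 11 of 19 co-factors, 9 of 18 MAVS signalling genes, 7 of 10 genes of the PKR arm, 8 of 10 of the ZBP1 arm, 7 of 13 of editing and decay, 6 of 10 of endosomal sensing and 13 of 21 interferon response genes passed the F test that 44.6% of all genes passed. On the step from ST-HSC to CLP, on which Eif2ak2 and Ifih1 were called lower, Ifit1 stood at 16.4 ± 2.60 CPM in ST-HSCs and 0.0214 ± 0.0427 in CLPs, and Oas3 at 10.6 ± 2.50 CPM and 0 in each of the 4 CLP libraries. Other genes of the interferon list moved the opposite way, Ifnar2 from 27.2 ± 7.58 to 173 ± 58.5 CPM (log2 fold change 2.65 ± 0.36, adjusted p = 1.73e-05) and Bst2 from 33.8 ± 4.49 to 94.8 ± 22.6 CPM (1.47 ± 0.23, 6.91e-05).

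Likeness over the 46 libraries was measured by Pearson's r of log2 CPM, with no test, since libraries of a population share its profile. Zbp1 was most like H2-Eb1 (0.884), H2-Aa (0.878) and H2-K1 (0.846), which encode antigen-presenting molecules, and Ddx58 was most like Apol7e (0.90), H2-Aa (0.881) and P2ry10 (0.877). With the mean of each of the 12 groups removed these values fell to 0.114 to 0.458. Ddx58 and Zbp1 had an r of 0.77 with each other, and -0.0773 without group means. Eif2ak2 was most like Ift74 (0.899), Tmem98 (0.873) and Slc22a21 (0.864), and by Spearman's rho most like Ifih1 (0.725). Ifih1 was most like the gene listed as 6-Mar (0.914), Ogfrl1 (0.89) and Mbip (0.857), Dhx58 like Cep83os (0.933), Pak1 (0.93) and Maoa (0.909), and Mavs like Kat5 (0.839), Cndp2 (0.825) and Atp6v0a2 (0.792). Adar had the weakest neighbours, Tbc1d23 (0.597), Zfat (0.59) and Gm42507 (0.581). By Spearman's rho the first gene was another one for every member but Zbp1, and several of these genes were far less alike by rank: rho was 0.474 for Cep83os and 0.227 for Maoa with Dhx58, 0.616 for 6-Mar with Ifih1, 0.47 for Atp6v0a2 with Mavs and 0.381 for Slc22a21 with Eif2ak2. For Zbp1 and Ddx58 the genes named had a rho of 0.831 to 0.892.

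The second set of LT-HSCs compared libraries labelled WT, Sting-/- and DKO, with the Tmem173 counts given above. edgeR called 0 of 7 genes in Sting-/- against WT (0.00915% of 10924 genes called; 5.05% at an unadjusted p under 0.05), in DKO against WT (1.13%; 14.6%) and in DKO against Sting-/- (0.687%; 11.3%), and 0 of 7 had an unadjusted p under 0.05 in any of them; DESeq2 also called 0. Eif2ak2 held 10.8, 19.4 and 0 CPM in WT, 0, 33.3 and 35.4 in Sting-/- and 5.97, 13.7 and 11.7 in DKO, so libraries at 0 stood beside libraries above 30 within a genotype.

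**Figure D4:**
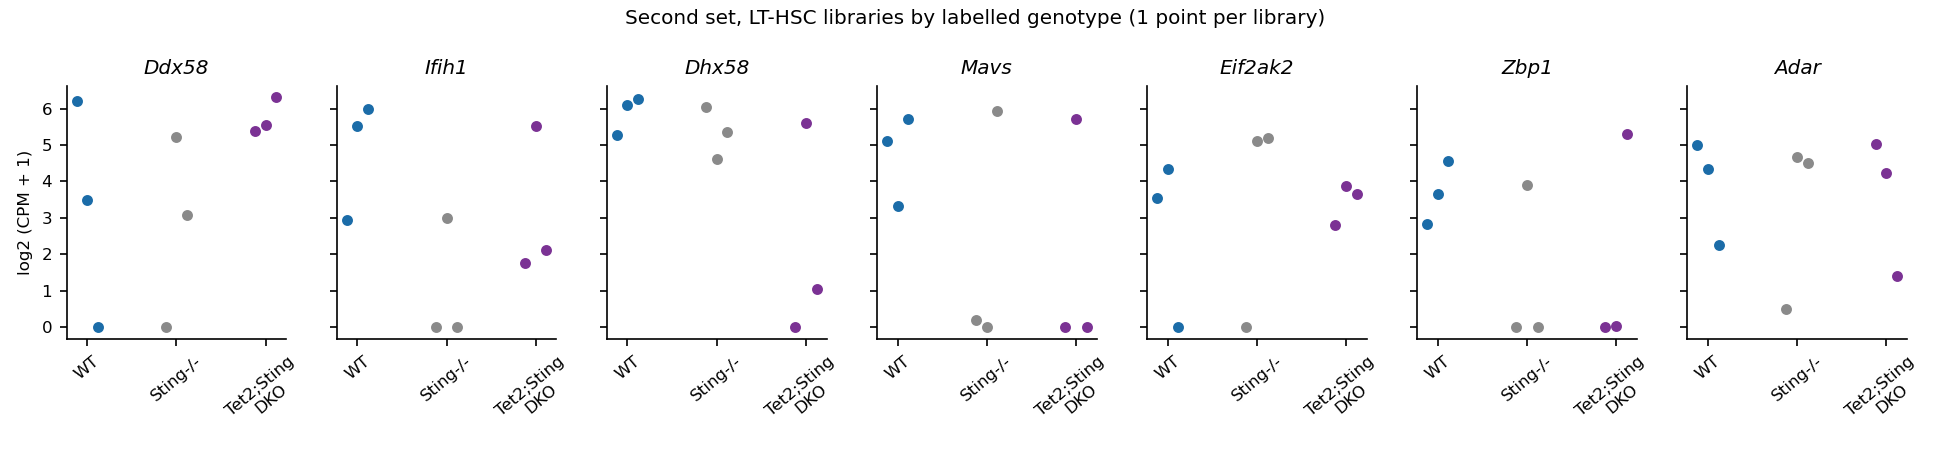
Log2 of CPM plus 1 (vertical axis) of each gene in the 9 LT-HSC libraries of the second set by labelled genotype (horizontal axis), 1 point per library. Libraries at 0 stand beside high ones within a genotype, as for Ddx58 in WT (72.6, 10.3 and 0 CPM), while Ddx58 in DKO held 40.8, 45.7 and 77.9 CPM.

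Ddx58 held 72.6, 10.3 and 0 CPM in WT, 0, 36.5 and 7.48 in Sting-/- and 40.8, 45.7 and 77.9 in DKO (DKO against Sting-/-: log2 fold change 1.90 ± 2.42, adjusted p = 0.976). Ifih1 held 6.71, 44.8 and 62.2 CPM in WT, 0, 7.05 and 0 in Sting-/- and 2.38, 45.3 and 3.37 in DKO. Mavs was at 0 in 1 Sting-/- and 2 DKO libraries and reached 60.2 and 51.3 CPM in others of the same groups. Zbp1 was at 0 in 2 Sting-/- libraries and 1 DKO library and reached 38.2 CPM in another DKO library. Dhx58 held 37.5, 67.1 and 75.9 CPM in WT, 64.9, 23.4 and 39.6 in Sting-/- and 0, 47.4 and 1.06 in DKO. Adar had counts in all 9 libraries, from 0.42 to 31.8 CPM. Leaving out the 3 libraries labelled Sting-/- or DKO that held at least 100 Tmem173 counts left 1 Sting-/- library and 2 DKO libraries. In that fit the Sting-/- library had to be assumed to vary like the WT and DKO libraries, so no calls are given for it. With all 9 libraries, standard errors of the 7 genes over the 3 contrasts ran from 1.85 to 3.35 on the log2 scale.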

How the data were processed

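Raw gene counts of 55 bulk RNA-seq libraries were taken as deposited by the authors, who trimmed reads with Trim Galore and mapped them to mm10 with Hisat2; the counting program and annotation were not given in the sources used here. The second table's gene length, in bases, served only for levels per kilobase. Groups and replicate numbers came from the sample labels. CPM used TMM effective library sizes, computed for each table. Tests were edgeR 4.0.16 quasi-likelihood fits (R 4.3.3, filterByExpr, prior count 2) over all genes with Benjamini-Hochberg adjustment, and a call was an adjusted p under 0.05 and at least 2-fold. The F tests across populations and of the difference of the genotype effect needed only the adjusted p. Alternatives were DESeq2 1.42.0, RLE scaling, no low-count filter, a replicate block, 1 fit of all 46 libraries, no 2-fold minimum and each library left out. Another was limma 3.58.1 voom with genotype and replicate number together as a random block, so that method and block changed together. The labels do not say whether such a block is 1 mouse. No CLP libraries and GENCODE exon lengths were added after the data were seen. Scripts were tested on simulated data. The 7 genes and the gene lists were chosen with earlier results of these data known. The rule for named genes was all 7 genes, the 3 genes of highest Pearson r to each, and of each list and comparison those called (at most 4) or else the 2 of smallest p; the text names a part of the genes of the lists.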

Additional observations from a re-analysis of the deposited data

Results flagged for a closer look

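In groups of 4 libraries, a library was singled out where its gap to the nearest other, as a share of the group's range, exceeded Dixon's 95% critical value. Of 70 groups tested 2 were singled out, and chance alone does so in about 1 in 20 groups. Adar in WT CLPs stood at 41.8 CPM in replicate 5, with a gap of 0.867 of the range. Mavs in CLPs labelled Tet2-/- stood at 102.7 CPM in replicate 3, with a gap of 0.907 of the range; that library also held the highest GMP marker sum among CLPs, 12150 CPM.

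The genotype effect on Eif2ak2 differed between the 6 populations (edgeR F test of the difference, adjusted p = 0.0314), passing in 4 of 13 other settings of the fit (0.000192 to 0.243) and not without the CLP libraries (0.908), with log2 fold changes from 0.32 ± 0.37 in LT-HSCs to 4.71 ± 1.89 in CLPs, where 3 of 4 libraries labelled Tet2-/- lay above every WT library.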

How the results depend on the processing

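Counts of the 7 genes called changed as follows. By DESeq2 the count was 1 in the genotype comparison in CLPs (Eif2ak2, beside 2.06% of all genes). On the WT steps DESeq2 called 1 from CMP to GMP (Ddx58) and 2 from ST-HSC to CMP (Ddx58 and Zbp1). The share of all genes that DESeq2 called on these steps is not given here, so these counts have no share beside them. In 1 fit of all 46 libraries the count was 1 in CLPs. Without the 2-fold minimum it was 1 in CMPs, and without the low-count filter 0 from CMP to MEP. Leaving out 1 library or replicate number gave 0 to 1 in CMPs, MEPs, from CMP to GMP and from CMP to MEP, 0 to 2 from ST-HSC to CMP and 1 to 2 from ST-HSC to CLP. Without the CLP libraries the average effect had 0, where 828 of 21736 genes were called. For the difference of the effect between populations the count was 0 with voom and its random block together, and 0 with the replicate block. It was 0 without the CLP libraries, where 550 of 21736 genes passed, and 0 to 1 when leaving out a replicate number.

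Genotype log2 fold changes that turned sign were all uncalled. On average, Ddx58 turned from 0.03 to -0.0104 with voom and its random block together. Mavs turned from -0.0046 to 0.0326 (DESeq2), 0.0302 (RLE) and 0.00422 (no filter). With libraries left out, Ddx58 ran from -0.0478 to 0.23 and Mavs from -0.39 to 0.21 on average. In LT-HSCs Mavs ran from -0.43 to 0.59. In ST-HSCs Ddx58 ran from -0.0361 to 0.24, Mavs from -0.98 to 0.27 and Adar from -0.35 to 0.20. In GMPs Ddx58 ran from -0.18 to 0.15 and Mavs from -0.00237 to 0.26. In MEPs Ddx58 ran from -0.063 to 0.45, Dhx58 from -0.41 to 0.22 and Zbp1 from -0.16 to 1.64. In CLPs Dhx58 ran from -0.38 to 2.08, Mavs from -1.84 to 0.88 and Adar from -0.28 to 0.79. The causes were not tested.

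Of 22 same-numbered WT and labelled Tet2-/- pairs 0 had a correlation of deviations over 0.1 (-0.0216 to 0.0345). Same-numbered libraries of different populations within a genotype also had low values, with medians of 0.022 in WT and 0.028 labelled Tet2-/-. Low values therefore cannot show that pairing by replicate number was absent. With the replicate block Eif2ak2's difference between populations had an adjusted p of 0.0671, Mavs in CLPs turned to -1.66 and Dhx58 in ST-HSCs to 0.0832. With GENCODE exon lengths every WT level per kilobase was lower, 13 of them by more than the SD between replicates and 29 by less.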
